A study of Mus musculus with 16 samples.

Results

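Hypoxia response and glycolysis genes were followed in 2 facial tissues of the E11.5 mouse embryo, the mandible and the frontonasal prominence (FNP). The group held 36 genes, which were taken by name from known targets of the hypoxia-inducible factors (HIF) and the enzymes of glycolysis. They were chosen with earlier results of these data known, so comparisons with all genes below are descriptions. All 36 were present among the 15451 genes of the gene value table and the 35639 genes of the TPM table, in which values are transcript abundances corrected for length. RNA-seq was performed on 16 libraries from 8 embryos, and each embryo gave 1 library of each tissue. Embryos 3 to 6 were the mutants, with genotype *Srf* flox/flox; *Wnt1-Cre*. Controls 1 and 7 carried *Wnt1-Cre* with *Srf* flox/+, control 2 was *Srf* flox/flox without Cre, and control 8 was *Srf* flox/+ without Cre, so every embryo had at least 1 floxed allele. By the deposited design table, embryos 1 to 5 formed the first litter and embryos 6 to 8 the second, which left 1 mutant and 2 controls in the second litter. *Wnt1-Cre* recombines in the neural crest lineage, whereas whole prominences also hold ectoderm, endothelium, blood and other cells that keep *Srf*. *Srf* itself stood at 34.7 to 75.2 TPM in control and 11.8 to 14.7 TPM in mutant FNPs, and at 34.4 to 65.9 TPM and 10.8 to 14.1 TPM in mandibles. Every mutant library therefore lay below every control library of its tissue for the targeted gene.

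When oxygen is plentiful, prolyl hydroxylases of the EGLN family mark HIF alpha subunits for ubiquitination by VHL and destruction. When oxygen is scarce, the alpha subunits persist, pair with ARNT and bind the short core motif ACGTG or GCGTG near their targets. Those targets raise glucose uptake, glycolysis and lactate output, divert pyruvate from mitochondria, promote vessel growth and modify collagen. Glycolytic genes have other regulators as well, and are expressed in most cells.

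Promoter windows of some members are printed here to show the HIF core motif in genes that differed between the litters and in genes that did not. The windows are from RefSeq on GRCm38.p6, run 5′ to 3′ on the strand of the gene and reach from 250 bases before to 50 bases after the annotated start. Capitals mark ACGTG or GCGTG on either strand, where CACGT and CACGC are their reverse complements. The palindrome CACGTG contains ACGTG on both strands and was counted as 2 overlapping matches. *Ldha*, *Pgam1*, *Ankrd37* and *Mif* were lower in the second litter, while *P4ha1* and *P4ha2* did not pass that test.
Ldha: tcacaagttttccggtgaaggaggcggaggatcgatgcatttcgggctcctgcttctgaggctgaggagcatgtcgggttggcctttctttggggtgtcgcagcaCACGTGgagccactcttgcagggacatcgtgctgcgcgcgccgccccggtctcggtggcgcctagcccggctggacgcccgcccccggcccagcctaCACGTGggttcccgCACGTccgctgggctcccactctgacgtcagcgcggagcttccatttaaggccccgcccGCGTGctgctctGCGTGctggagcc
Pgam1: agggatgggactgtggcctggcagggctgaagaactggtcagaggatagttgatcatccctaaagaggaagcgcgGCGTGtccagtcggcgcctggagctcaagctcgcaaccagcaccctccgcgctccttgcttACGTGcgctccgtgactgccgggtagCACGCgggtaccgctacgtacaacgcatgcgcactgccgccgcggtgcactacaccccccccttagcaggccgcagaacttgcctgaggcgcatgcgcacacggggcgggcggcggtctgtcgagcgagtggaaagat
Ankrd37: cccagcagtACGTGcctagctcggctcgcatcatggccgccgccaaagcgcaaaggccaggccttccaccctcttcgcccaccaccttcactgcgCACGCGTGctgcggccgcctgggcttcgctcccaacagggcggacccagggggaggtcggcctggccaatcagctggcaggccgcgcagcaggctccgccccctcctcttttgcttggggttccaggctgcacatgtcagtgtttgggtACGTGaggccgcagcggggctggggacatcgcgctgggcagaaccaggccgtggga
Mif: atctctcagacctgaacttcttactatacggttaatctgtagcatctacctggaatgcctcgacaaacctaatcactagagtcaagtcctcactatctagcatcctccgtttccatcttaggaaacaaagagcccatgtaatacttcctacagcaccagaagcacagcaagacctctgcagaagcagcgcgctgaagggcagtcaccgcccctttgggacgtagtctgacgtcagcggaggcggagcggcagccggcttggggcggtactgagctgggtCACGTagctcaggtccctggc
P4ha1: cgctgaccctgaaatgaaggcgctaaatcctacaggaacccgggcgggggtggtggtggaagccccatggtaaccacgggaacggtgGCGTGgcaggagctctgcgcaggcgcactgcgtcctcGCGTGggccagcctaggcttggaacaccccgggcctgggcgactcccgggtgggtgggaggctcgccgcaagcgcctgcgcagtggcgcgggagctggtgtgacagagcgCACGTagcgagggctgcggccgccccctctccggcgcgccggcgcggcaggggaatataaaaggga
P4ha2: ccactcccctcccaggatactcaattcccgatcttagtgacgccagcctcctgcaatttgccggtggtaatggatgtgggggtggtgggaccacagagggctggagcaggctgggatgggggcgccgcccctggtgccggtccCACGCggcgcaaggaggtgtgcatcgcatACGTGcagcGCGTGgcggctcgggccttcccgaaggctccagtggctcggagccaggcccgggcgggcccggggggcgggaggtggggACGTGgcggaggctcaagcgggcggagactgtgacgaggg
The *Ldha* window at chr7:46845554-46845853 (plus strand) held 5 ACGTG matches, with 2 copies of CACGTG. The window of another annotated *Ldha* start, at chr7:46846832-46847131 and not printed, held 0 ACGTG and 2 GCGTG matches. The *Pgam1* window at chr19:41911621-41911920 (plus strand) held 1 ACGTG match, and the *Ankrd37* window at chr8:45999801-46000100 (minus strand) held 2. *Mif* had 1 at chr10:75860228-75860527 (minus strand). *P4ha1* also had 1, at chr10:59323046-59323345 (plus strand), and *P4ha2* had 2, at chr11:54100674-54100973 (plus strand). A gene with several annotated starts was counted as holding the motif if any of its windows did. On that count ACGTG was found for 24 of the 33 members with a window (72.7%), against 28.7% of 10846 genes tested and 21.8% of all 27025 genes with a window. It was found for 11 of 16 members that were lower in the second litter (68.8%) and for 13 of 17 other members (76.5%). These others include *Aldoc*, which was higher in the second litter, and *Stc2* and *Car9*, which were not tested, and the difference between the shares was not tested. Every window printed above held ACGTG. Among the members lower in the second litter, *Eno1*, *Adm*, *Pfkl*, *Tpi1* and *Gpi1* had no ACGTG in any window. Of the other members, *Kdm3a*, *Pdk1*, *Pfkp* and *Stc2* had none. Either ACGTG or GCGTG was found for 31 of 33 members (93.9%), against 66.6% of genes tested and 46.7% of all genes with a window, and for 14 of 16 members lower in the second litter (87.5%) and 17 of 17 others (100%). Members were chosen by name as HIF targets or glycolytic enzymes, which may itself raise their share over that of all genes. The windows compared were not matched for base content. A match in a window is a description of its letters and was not tested as a binding site.

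The members were expressed at very different levels. TPM is a level per transcript length, so genes can be ranked by it, and values below are means ± SD over 16 libraries. *Gapdh* (2418 ± 350 TPM), *Mif* (1468 ± 247 TPM) and *Pkm* (1343 ± 155 TPM) stood highest. *Mif* and *Pkm* do not differ beyond their spread. *Ldha* followed at 799 ± 154 TPM, and *Pgk1*, *Pgam1*, *Aldoa*, *Eno1* and *Tpi1* lay between 445 and 564 TPM, closer to each other than their spread. The place of *Eno1* is uncertain, as a near-identical copy, *Eno1b*, was listed at a mean of 979 TPM and may share its reads. *Gpi1* (221 ± 23.9 TPM) and *Pfkl* (123 ± 18.2 TPM) were the lowest of the abundant enzymes. Most HIF targets and regulators lay between 13.1 TPM (*Ankrd37*) and 98.8 TPM (*Ddit4*), among them *Vegfa* at 83.5 ± 15.1 TPM and *Slc2a1* at 82.1 ± 15.6 TPM. *Egln3*, *Pfkp*, *Ndrg1*, *Aldoc*, *Bhlhe40*, *Stc2*, *Adm* and *Car9* were at 1.27 to 8.94 TPM. *Hk2* varied least between libraries (27.3 ± 1.72 TPM) relative to its mean, and *Adm* most (1.51 ± 1.07 TPM).

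**Figure D1:**
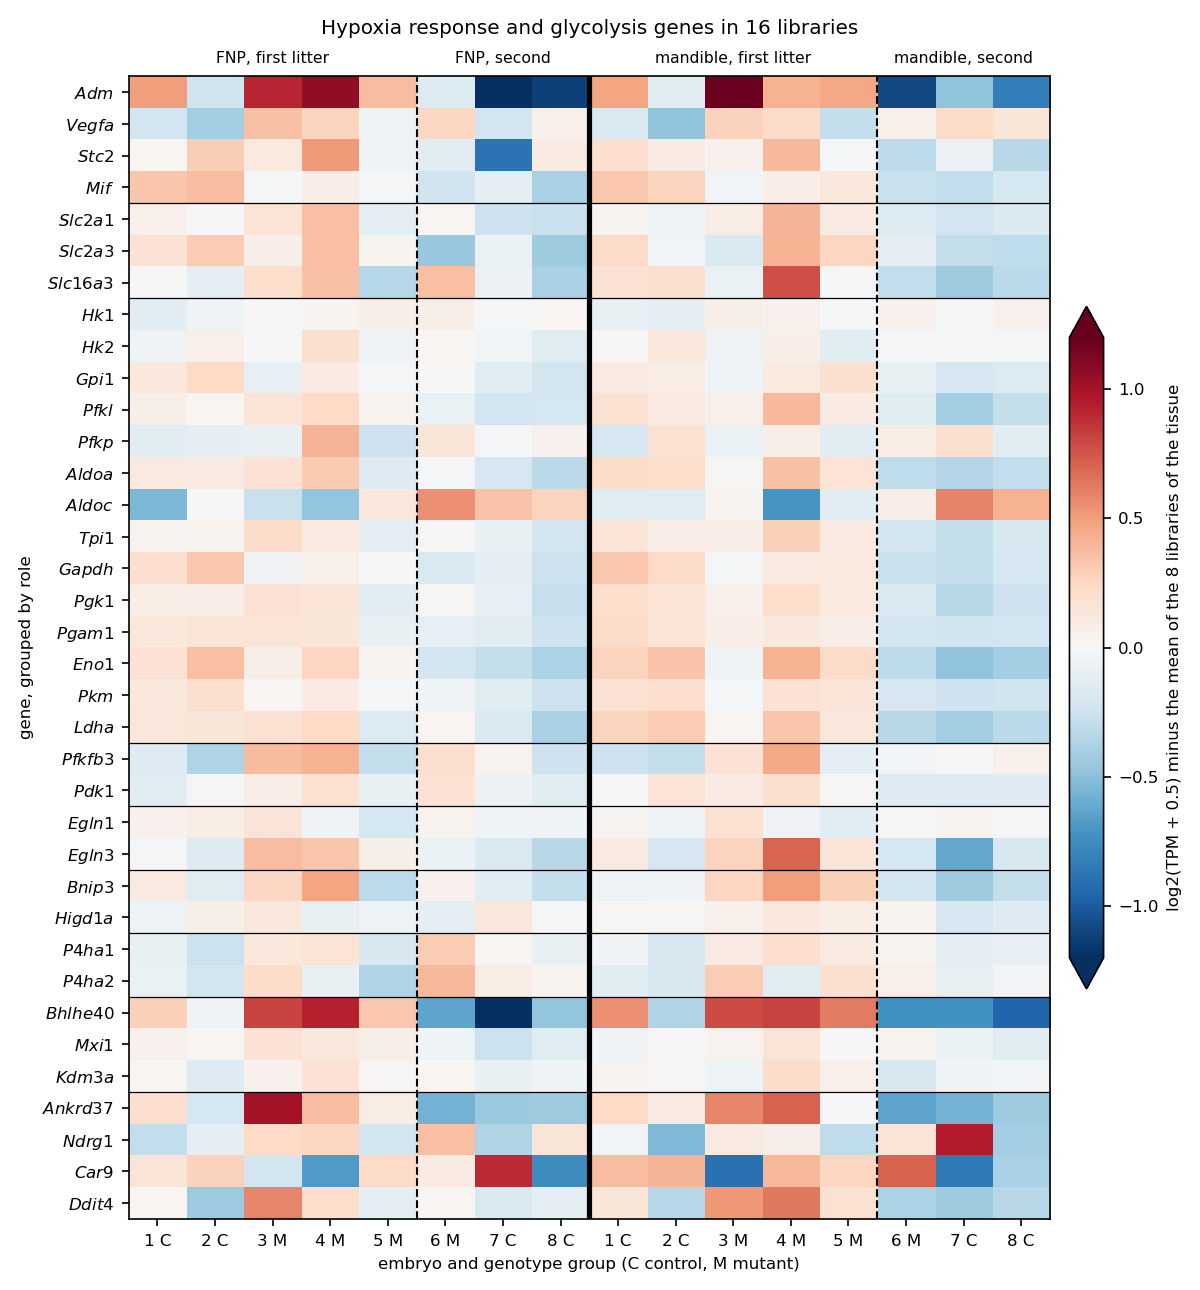
Heat map of the 36 genes in 16 libraries. Rows are genes grouped by role, columns are embryos within each tissue (C, control; M, mutant), and colour is log2(TPM + 0.5) minus the mean of the 8 libraries of that tissue, cut at 1.2 on either side. Most rows of glycolytic enzymes are redder in embryos 1 to 5 than in embryos 6 to 8 in both tissues, and *Aldoc* is the reverse. *Stc2* and *Car9* stand at or below 2.93 TPM and did not pass the filter on low values.

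Genes were compared with limma on log2(value + 0.5) of the deposited gene values (estimated counts after size-factor scaling), so every log2 fold change below is a difference on that scale. Changes of weakly expressed genes are understated on it. Testing was limited to genes that reached 10 in 4 or more libraries. That filter kept 34 members and left out *Stc2*, which encodes the secreted glycoprotein stanniocalcin 2, and *Car9*, which encodes a membrane carbonic anhydrase. Calls were made where the p-value, adjusted over all genes tested by Benjamini and Hochberg's method, did not exceed 0.05. Library totals of the gene values ranged from 10.2 to 11.2 m once scaled by the authors. Read depth per value is therefore unknown, and the spread between embryos serves as the error.

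The first comparison was between the litters, with tissue and genotype as covariates. Glycolytic enzymes were lower in the second litter almost along the whole pathway, as were both glucose transporters and several HIF targets. Of the 34 members tested, 18 were lower and 1 was higher, whereas over all genes 26.1% were called and 15.2% were called lower. The members' median log2 fold change was -0.28, against -0.01 for all genes. Among the 14 glycolytic enzymes 10 fell and 1 rose. There were 3 embryos in the second litter and 5 in the first, and litter cannot be told apart from anything else that differed between these pregnancies. Both libraries of an embryo entered the fit as separate samples, and with the embryo as a block 19 members were called as well. That block applies 1 within-embryo correlation, 0.118, to all genes. With litter and genotype effects removed, the members' median Pearson r between FNP and mandible was 0.41. Standard errors and p-values of such members may therefore still be too small. In bulk tissue, fewer cells of a type and less RNA per cell cannot be told apart either.

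*Eno1* encodes the ubiquitous enolase, which makes phosphoenolpyruvate (chromosome 4, 150236721 to 150248879, plus strand, GRCm38). In the FNP *Eno1* stood at 518, 590, 482, 549 and 468 TPM in embryos 1 to 5 and at 391, 377 and 352 TPM in embryos 6 to 8. Its mandible levels were 515, 544, 413, 574 and 502 TPM in the first litter and 344, 307 and 323 TPM in the second. The litters did not overlap in either tissue, and the mutant of the second litter, embryo 6, lay with its control littermates. The log2 fold change was -0.58 (SE 0.0706, limma, Benjamini-Hochberg adjusted p = 7.69e-05). *Eno1b*, a near-identical intronless copy of *Eno1* in the mouse genome, was listed at a mean of 979 TPM against 453 TPM for *Eno1*, so reads may be divided between these entries. The litter contrast of *Eno1b* was -0.46 on the log2 scale (limma, Benjamini-Hochberg adjusted p = 0.000116). The sum of both entries ranged from 1456 to 1845 TPM in first-litter FNPs and from 1166 to 1302 TPM in second-litter FNPs, and from 1272 to 1728 TPM and 1069 to 1102 TPM in mandibles. The litters thus stayed apart for the sum as well. Named copies of *Gapdh*, *Ldha*, *Mif*, *Pgam1*, *Pgk1*, *Tpi1* and *Aldoa* held at most 0.308% of the level of the gene itself.

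*Gapdh*, whose enzyme carries out the oxidative step of glycolysis, was the most abundant member (chromosome 6, 125161715 to 125166467, minus strand, GRCm38). In the FNP *Gapdh* was measured at 2709.6, 2948, 2282, 2459 and 2342 TPM in embryos 1 to 5 and at 2079, 2181.5 and 1989 TPM in embryos 6 to 8. Mandible levels were 3042, 2855, 2406, 2618 and 2633 TPM in the first litter and 2022, 1999 and 2121 TPM in the second. Again no second-litter library reached the lowest first-litter library of its tissue. In limma, the log2 fold change was -0.39 (SE 0.0467, limma, Benjamini-Hochberg adjusted p = 7.24e-05). *Pgam1* encodes phosphoglycerate mutase, which acts between the products of *Pgk1* and *Eno1*. In the FNP *Pgam1* was at 614, 626, 627, 624 and 531 TPM in the first litter and at 526, 514 and 474 TPM in the second. For the mandible the values were 596, 571, 538, 555 and 538 TPM and 436, 430 and 434 TPM. The litters did not overlap on the deposited values, although embryos 5 and 6 lay close together in the FNP. Its litter contrast on the log2 scale was -0.34 (SE 0.0422, limma, Benjamini-Hochberg adjusted p = 9.63e-05).

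*Ldha* encodes the lactate dehydrogenase subunit that favours lactate, and its window above held the most ACGTG matches of those printed. In the FNP *Ldha* stood at 947, 952, 976, 1019 and 769 TPM in embryos 1 to 5 and at 873, 765 and 660 TPM in embryos 6 to 8. In the mandible the same embryos gave 861, 882, 726, 899 and 782 TPM and 568, 534 and 572 TPM. The litters overlapped in the FNP, where embryo 6 exceeded embryo 5, and did not overlap in the mandible. The fold change over both tissues was -0.43 (SE 0.0780, limma, Benjamini-Hochberg adjusted p = 0.00105). The other enzymes that fell were *Aldoa* (log2 fold change -0.41), *Pfkl* (-0.35), *Pkm* (-0.32), *Pgk1* (-0.31), *Tpi1* (-0.28) and *Gpi1* (-0.23), which encode aldolase A, liver-type phosphofructokinase, pyruvate kinase, phosphoglycerate kinase, triosephosphate isomerase and glucose phosphate isomerase. The hexokinase genes *Hk1* (0.06) and *Hk2* (-0.08), which start the pathway, and platelet-type phosphofructokinase *Pfkp* (0.10) did not pass the test. *Aldoc*, the aldolase of brain, stood at only 1.11 to 4.19 TPM and was higher in the second litter (0.67, SE 0.198, limma, Benjamini-Hochberg adjusted p = 0.0206), with no overlap between the litters in either tissue. Its call was lost in 8 of 19 other settings, among them the mean of the tissues per embryo (limma, adjusted p = 0.0801). Summed over the 14 enzymes, the level was 7291 to 8764 TPM in first-litter and 6269 to 7161 TPM in second-litter FNPs, and 7270.2 to 8569 TPM and 5861 to 6130 TPM in mandibles. *Eno1b* was left out of these sums. As a share of the library's summed TPM the enzymes took 0.730 to 0.853% in first-litter and 0.667 to 0.778% in second-litter FNPs, which overlapped, and 0.701 to 0.845% and 0.610 to 0.632% in mandibles, which did not.

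*Mif*, which encodes a secreted cytokine and is a HIF target, was as low in the second litter as the enzymes. In the FNP *Mif* was listed at 1838, 1879.6, 1434, 1535 and 1432 TPM in embryos 1 to 5 and at 1234, 1354 and 1111 TPM in embryos 6 to 8. Mandibles of the first litter gave 1800.1, 1733, 1408, 1524 and 1584 TPM and those of the second 1196, 1175 and 1245 TPM. There was no overlap, and within the first litter the controls, embryos 1 and 2, had the highest values in both tissues. The log2 fold change between the litters was -0.47 (SE 0.0558, limma, Benjamini-Hochberg adjusted p = 7.24e-05).

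*Bhlhe40*, a transcriptional repressor induced by HIF, was present at a few TPM and had the second largest fold change between the litters among the members. In the FNP *Bhlhe40* was at 3.26, 2.48, 4.89, 5.36 and 3.34 TPM in embryos 1 to 5 and at 1.48, 0.844 and 1.72 TPM in embryos 6 to 8. Mandible libraries of the same embryos gave 2.85, 1.28, 3.45, 3.53 and 3.03 TPM and 0.885, 0.883 and 0.683 TPM. Each second-litter library lay below each first-litter library of its tissue, and embryos 3 and 4 had the highest levels in both tissues. In limma, the log2 fold change was -1.45 (SE 0.199, limma, Benjamini-Hochberg adjusted p = 0.000176). The largest fold change was that of *Adm*, which encodes the vasodilator adrenomedullin (-1.80, SE 0.318, limma, Benjamini-Hochberg adjusted p = 0.000903), named after its values were seen. *Adm* ranged only from 0.238 to 3.59 TPM, and in the FNP embryo 6, at 1.24 TPM, lay above embryo 2, at 1.16 TPM. *Ankrd37*, a small ankyrin repeat gene induced in hypoxia and also named after its values were seen, differed by -0.80 on the log2 scale (SE 0.153, limma, Benjamini-Hochberg adjusted p = 0.00153). Its levels were 11.7 to 27.7 TPM in first-litter and 9.03 to 10 TPM in second-litter FNPs, and 10.9 to 18.2 TPM and 6.90 to 8.05 TPM in mandibles.

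Of the remaining members that passed, *Slc2a3* and *Slc2a1*, the genes of the glucose transporters GLUT3 and GLUT1, fell by 0.45 and 0.26 on the log2 scale. The oxygen-sensing hydroxylase gene *Egln3*, itself a HIF target, fell by 0.38, and *Mxi1*, a MYC antagonist, fell by 0.15. The *Slc2a1* call was lost in 6 of 20 other settings and the *Egln3* call in 5. Members that did not pass were the vascular growth factor gene *Vegfa* (log2 fold change 0.22), the lactate exporter gene *Slc16a3* (-0.29), the flux regulators *Pfkfb3* (0.07) and *Pdk1* (-0.11), and *Egln1* (-0.0014). Those acting at mitochondria, *Bnip3* (-0.28) and *Higd1a* (-0.07), did not pass either, nor did *P4ha1* (0.07), *P4ha2* (0.17), *Kdm3a* (-0.09), *Ndrg1* (0.31) and *Ddit4* (-0.31). Some of these passed in limma under other settings. Among control embryos alone *Vegfa* was higher in the second litter (0.37, adjusted p = 0.0271), against the direction of the HIF targets that fell, and *Slc16a3* was lower (-0.40, adjusted p = 0.0170). *Bnip3* was called lower without embryo 5 (-0.33, adjusted p = 0.00681) and after quantile normalization (-0.31, adjusted p = 0.0446), and *Ddit4* without embryo 2 (-0.46, adjusted p = 0.0219).

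**Figure D2:**
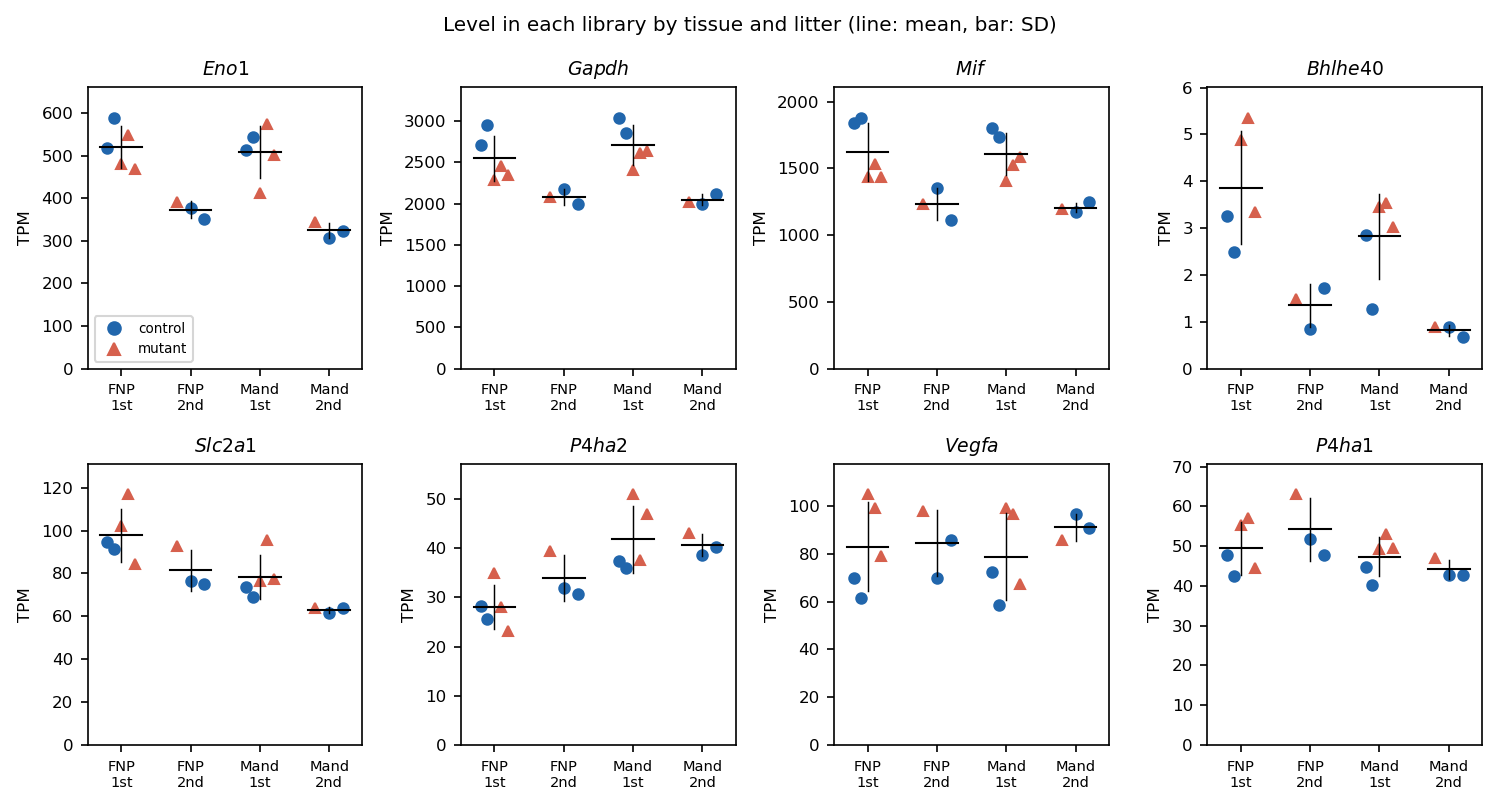
Levels of 8 genes in TPM on axes that start at 0, by tissue and litter (1st, embryos 1 to 5; 2nd, embryos 6 to 8). Circles are control and triangles mutant libraries, horizontal lines are means and vertical bars SD. For *Eno1*, *Gapdh*, *Mif* and *Bhlhe40* the second litter lies below the first in both tissues, *P4ha2* is higher in the mandible, and for *Vegfa* and *P4ha1* the litters overlap.

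Counted by library, all second-litter libraries lay below all first-litter libraries in each tissue for 8 of 34 members, against 2.65% of all genes tested. These were *Mif*, *Pfkl*, *Gapdh*, *Pgam1*, *Eno1*, *Pkm*, *Bhlhe40* and *Ankrd37*. In the FNP alone it was so for 10 members (8.07% of all genes) and in the mandible alone for 20 members (8.93%). These counts rest on the deposited scaling and were not repeated with libraries at equal totals. Embryo 6 had the lowest FNP total, at 10.23 m, so separations by a small margin may depend on that scaling. The test of a difference between the tissues in the litter contrast, chosen after seeing the data, called 0 of 34 members and 0.0% of all genes (3 members and 781 genes at an unadjusted p under 0.05, smallest adjusted p over all genes 0.293, limma). Tested in the FNP alone the litter contrast called 9 members and in the mandible alone 12, all lower. Over all genes these single-tissue fits also called a smaller share than the 26.1% of both tissues together, with counts given at the end. Within the controls, 2 embryos against 2, the median member difference was -0.28, and within the mutants, 1 embryo against 3, it was -0.19. In either genotype group 26 of 34 members were below 0, whereas 46.8% and 48.9% of all genes were above 0.

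Other genes of the pathways moved in part, where 26.1% of all genes tested were called (15.2% lower and 10.9% higher). Of 21 genes of pyruvate dehydrogenase and the TCA cycle, 14 were lower in the second litter and 0 higher, though by less than the glycolytic enzymes, with a median log2 fold change of -0.15. *Cs* (citrate synthase) gave -0.22, *Idh3g* (isocitrate dehydrogenase) -0.20 and *Sdhd* (succinate dehydrogenase) -0.19. Of 21 other glycolysis and lactate genes tested, 3 were lower and 2 higher. The lactate transporter gene *Slc16a1* fell by 0.22, the muscle enolase gene *Eno3* fell by 0.72 and *Ldhb* fell by 0.41, while neuronal enolase *Eno2* rose by 1.01 on the log2 scale. Other HIF targets did not move as one, with 6 lower and 5 higher of 41 tested and a median of 0.04. *Gbe1*, the glycogen branching enzyme gene, fell by 0.57 and *Ier3* fell by 1.04, whereas the collagen cross-linking enzyme gene *Lox* rose by 0.86. Of 16 genes of HIF subunits and their regulators, 2 were lower and 3 higher, and *Hif3a* rose by 0.46, *Siah2* rose by 0.48, and the elongin genes *Elob* and *Eloc* each fell by 0.19. *Hif1a* was not among those called.

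Some marker genes of other cells were also called between the litters, where 26.1% of all genes tested were called (15.2% lower and 10.9% higher). Of 14 erythroid genes tested, the embryonic globin gene *Hbb-bh1* fell by 0.62 on the log2 scale and the adult globin genes *Hbb-bs* and *Hbb-bt* rose by 1.18 and 1.15. The summed erythroid level was 13258.7 to 26716.6 TPM in first-litter and 15182.6 to 17662.2 TPM in second-litter FNPs, and 11789.9 to 24525.6 TPM and 16311.6 to 18779.2 TPM in mandibles. Of 14 endothelial genes 3 fell (*Cldn5*, *Tek*, *Egfl7*) and 0 rose, with sums of 272 to 305 TPM and 246 to 277 TPM in FNPs and 259 to 308 TPM and 267 to 289 TPM in mandibles. Of 11 macrophage genes 1 fell, with sums of 40.6 to 45.9 TPM and 29.6 to 39.2 TPM in FNPs and 28.0 to 34.3 TPM and 25.5 to 36.7 TPM in mandibles, and of 8 muscle genes 2 rose. Neuron genes gave 0 calls of 14 (3 at an unadjusted p under 0.05 in limma), surface ectoderm genes 3 lower and 3 higher of 12, and mesenchyme genes 2 higher of 12. None of the markers was at 0 in every library. The part of these cells in the litter difference of the members was not tested.

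Next, the mandible was compared with the FNP, with litter and genotype as covariates. Glycolytic genes at several steps, the glucose transporter gene *Slc2a1* and some regulators were lower in the mandible, and a collagen hydroxylase gene was higher. Of 34 members, 8 were lower and 1 was higher in the mandible, while over all genes 29.7% were called and 17.8% were called lower. The members' share was therefore near the background. The mandible values lay below the FNP values in all 8 embryos for 3 members, *Slc2a1*, *Hk1* and *Kdm3a*, against 13.8% of all genes.

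*P4ha2* encodes a collagen prolyl 4-hydroxylase subunit, which is needed to form stable collagen helices. In the FNP *P4ha2* stood at 28.3, 25.6, 35, 28.0, 23.2, 39.4, 31.9 and 30.6 TPM in embryos 1 to 8. Mandibles of the same embryos gave 37.4, 36, 51.0, 37.6, 47.0, 43.0, 38.7 and 40.2 TPM. The mandible was higher in 8 of 8 embryos. On the log2 scale, the fold change was 0.46 (SE 0.0878, limma, Benjamini-Hochberg adjusted p = 0.000592), and the call held in all 20 other settings run. *P4ha1*, the gene of another catalytic subunit, gave -0.14 and did not pass the test (limma, Benjamini-Hochberg adjusted p = 0.0740), though it passed as lower without embryo 5 (-0.19, adjusted p = 0.00724). *Slc2a1* went the other way. In the FNP *Slc2a1* stood at 94.5, 91.4, 102, 117, 84.5, 92.6, 76.3 and 75.3 TPM in embryos 1 to 8. Its mandible values were 73.7, 68.8, 76.3, 95.4, 77.2, 64.0, 61.4 and 63.7 TPM. The ranges of the tissues overlapped across embryos, but each mandible lay below the FNP of its own embryo. On the log2 scale the contrast was -0.33 (SE 0.0627, limma, Benjamini-Hochberg adjusted p = 0.000568).

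*Hk1*, the hexokinase bound to mitochondria, was lower in the mandible by a small margin. In the FNP *Hk1* was at 28.3, 29.9, 30.9, 31.8, 32.7, 32.5, 30.8 and 31.5 TPM in embryos 1 to 8. The mandibles gave 24.9, 24.5, 28.0, 27.5, 26.3, 27.6, 26.4 and 27.6 TPM. Every mandible library was below every FNP library. The log2 fold change was -0.21 (SE 0.0462, limma, Benjamini-Hochberg adjusted p = 0.00176). *Kdm3a* encodes a histone H3K9 demethylase induced in hypoxia. In the FNP *Kdm3a* was at 79.3, 70.0, 81.0, 88.4, 79.1, 79.6, 73.3 and 76.0 TPM and in the mandible at 70.0, 69.4, 66.1, 79.8, 71.7, 60.1, 66.1 and 66.8 TPM, in embryos 1 to 8. Its fold change was -0.19 on the log2 scale (SE 0.0484, limma, Benjamini-Hochberg adjusted p = 0.00734). *Ldha* (-0.27), *Pgk1* (-0.17) and *Pgam1* (-0.14) were lower in the mandible as well, as were *Bhlhe40* (-0.54) and the stress-response gene *Ndrg1* (-0.67). The calls of *Bhlhe40* and *Ndrg1* were each lost in 8 other settings, and that of *Pgk1* in 6. With the embryo as a fixed block, which pairs the tissues of 1 animal, 12 members were called, and *Ankrd37*, *Gpi1* and *Pfkl* were added as lower in the mandible (limma, adjusted p = 0.0240, 0.0429 and 0.0436). Among the mutant embryos alone only 1 member was called, and among the controls alone 5. Calls over all genes fell in these smaller sets of samples as well, with counts given at the end. Within the first litter 27 of 34 members were below 0 and the median was -0.06, and within the second litter 27 were below 0 and the median was -0.22. Of all genes 48.4% and 48.5% were above 0, with a median of -0.01 in either litter.

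The tissues also differ in the cells they hold. Over all genes 17.8% were called lower and 11.9% higher in the mandible. Of 14 neuron markers 11 were lower in the mandible, with sums of 235 to 330 TPM in FNPs and 80.8 to 132 TPM in mandibles, and of 8 muscle markers 7 were higher, with sums of 5.96 to 14.2 TPM and 36.3 to 121 TPM. Of 11 macrophage markers 4 were lower and of 14 erythroid markers 0 differed (0 at an unadjusted p under 0.05 in limma). Of 12 surface ectoderm markers 7 were lower and 4 higher, with sums of 373 to 460 TPM in FNPs and 264 to 314 TPM in mandibles, which did not overlap. Of 12 cranial mesenchyme markers 6 were lower and 5 higher, and of 14 endothelial markers 1 was lower and 1 higher. The part of these cells in the tissue difference was not tested. Of the HIF subunits and regulators, 4 of 16 were lower in the mandible and 0 higher, namely *Cited2*, which competes with HIF for its coactivators (-0.41), *Siah2* (-0.60), *Hif1a* itself (-0.13) and *Hif3a* (-0.28). Other HIF targets gave 10 lower and 4 higher of 41, with fold changes as far apart as -2.18 for the carbonic anhydrase gene *Car12* and 2.80 for *Cited1*. Other glycolysis genes gave 3 lower and 2 higher of 21, among them the hexokinase family gene *Hkdc1* (1.97). Of the TCA cycle genes, *Pdha1* (-0.26) was lower and *Mdh2* (0.13) higher.

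**Figure D3:**
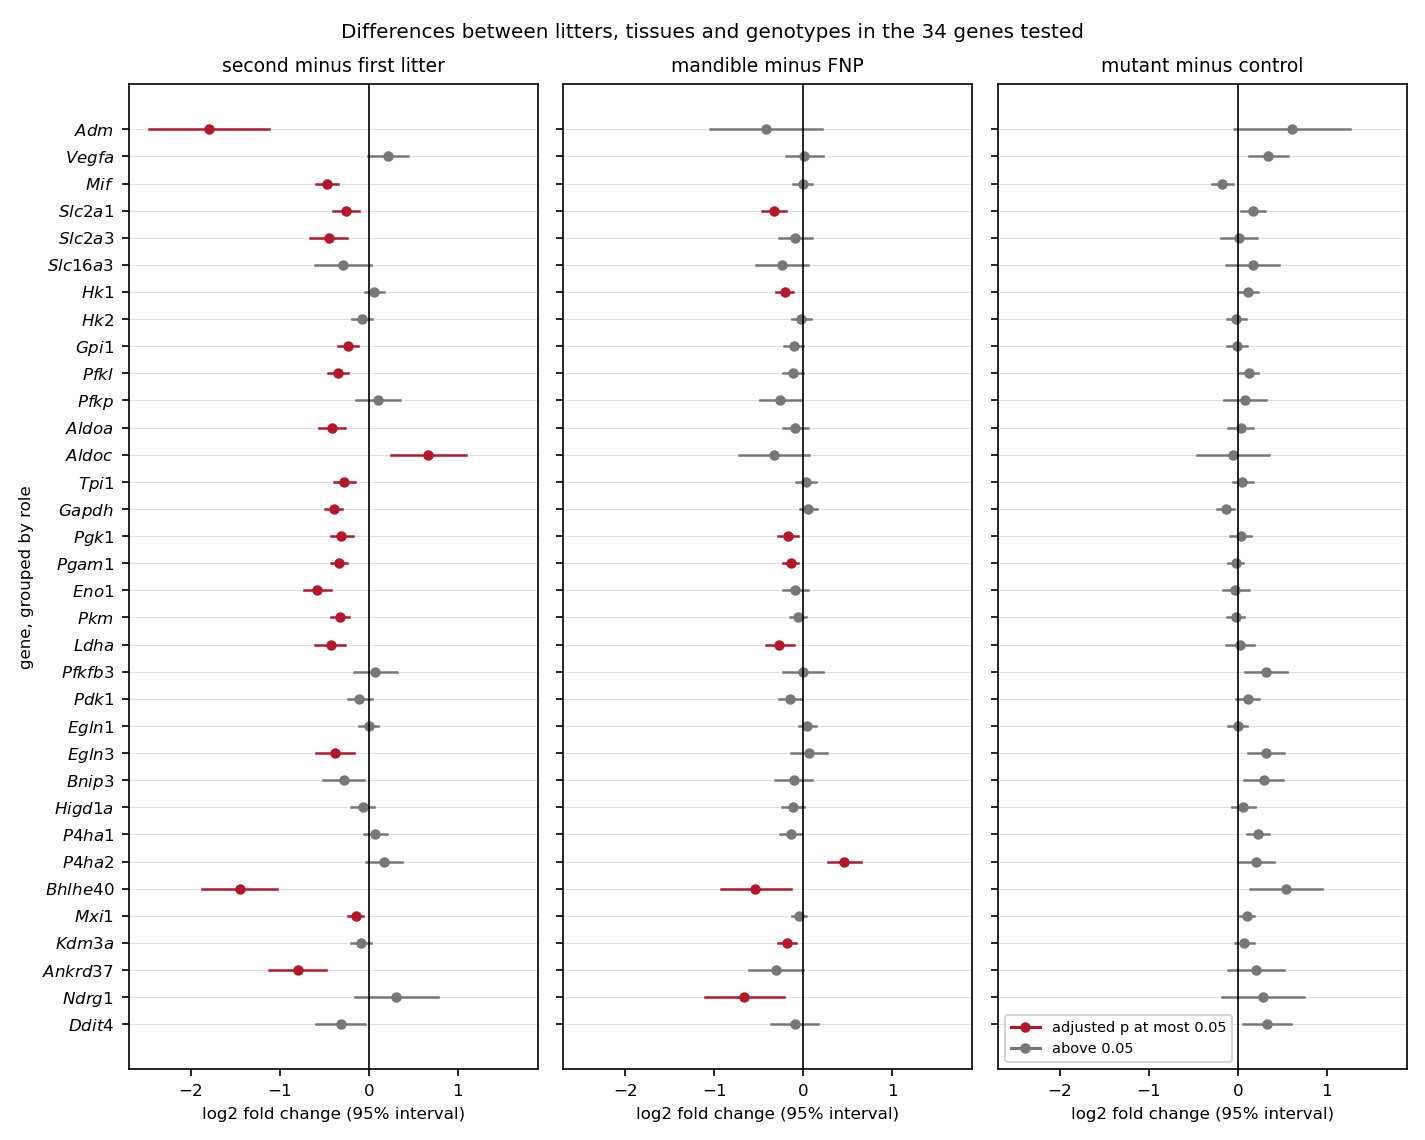
Log2 fold change of the 34 genes tested (points) with 95% interval (lines) from limma, for second minus first litter, mandible minus FNP and mutant minus control. Red marks an adjusted p of at most 0.05 over all genes tested. The litter panel has 19 red points, the tissue panel 9 and the genotype panel 0.

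Mutants were then compared with controls, with litter and tissue as covariates. No call was made for these genes. In both tissues together 0 of 34 members passed, against 1.33% of all genes. The unadjusted limma p was under 0.05 for 14 of 34 members and 2548 of 14630 genes. With the embryo as a block 113 of all genes and 0 members passed. Most estimates were above 0, at 25 of 34 members with a median log2 fold change of 0.09, against a median of 0.0019 for all genes. The glycolytic enzymes had a median of 0.005, with 7 above and 7 below 0. The FNP alone gave 0 members against 0.106% of all genes, and the mandible alone 0 members against 0.1%. In limma, an unadjusted p under 0.05 was reached by 8 of 34 members and 1943 of 14197 genes in the FNP. In the mandible it was reached by 6 of 34 members and 1008 of 14004 genes. The interaction of genotype and tissue gave 0 members (1 unadjusted) and 0.0% of all genes (638 unadjusted, smallest adjusted p 0.999, limma).

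*P4ha1* had the smallest adjusted p of the members. In the FNP *P4ha1* stood at 47.7, 42.5, 51.7 and 47.9 TPM in control embryos 1, 2, 7 and 8 and at 55.4, 57.2, 44.4 and 63.1 TPM in mutant embryos 3 to 6. Mandible levels were 44.8, 40.2, 42.7 and 42.8 TPM in the controls and 49.4, 53.0, 49.5 and 47.0 TPM in the mutants. The groups overlapped in the FNP, where mutant embryo 5 was among the lowest, and did not overlap in the mandible. In limma, the log2 fold change was 0.22 (SE 0.0591, limma, Benjamini-Hochberg adjusted p = 0.0705), at 0.22 within the first litter and 0.23 within the second. *P4ha1* passed when libraries were scaled to equal totals (limma, adjusted p = 0.0461) and without embryo 5 (adjusted p = 0.0161).

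*Vegfa*, the angiogenic growth factor gene, was next. In the FNP *Vegfa* was at 69.9, 61.7, 70.0 and 85.7 TPM in the controls and 105, 99.1, 79.0 and 97.9 TPM in the mutants, in the same order of embryos. Mandibles gave 72.3, 58.6, 96.5 and 91.0 TPM and 99.3, 96.6, 67.4 and 85.6 TPM. The groups overlapped in both tissues. On the log2 scale, the fold change was 0.34 (SE 0.103, limma, Benjamini-Hochberg adjusted p = 0.112), with 0.47 in the first litter and 0.12 in the second. *Mif* gave the third smallest value and was the lowest of the estimates, at -0.18 (SE 0.0541, limma, Benjamini-Hochberg adjusted p = 0.113), with -0.29 in the first litter and 0.02 in the second. *Gapdh* was estimated at -0.14 (SE 0.0452, limma, Benjamini-Hochberg adjusted p = 0.143), with -0.22 and 0.01. Without embryo 6, the mutant of the second litter, *Mif* and *Gapdh* passed as lower in mutants (limma, adjusted p = 0.0164 and 0.0269), and *Mif* also passed without embryo 8 (0.0463).

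*Egln3* was at 8.42, 7.61, 7.45 and 6.68 TPM in control and 11.2, 10.9, 8.98 and 8.07 TPM in mutant FNPs. In the mandible *Egln3* was at 9.59, 7.71, 5.63 and 7.73 TPM in the controls and 10.8, 14.8, 9.96 and 7.65 TPM in the mutants. Embryos 3 and 4 were highest in both tissues and embryo 6 lay among the controls. The log2 fold change was 0.32 (SE 0.0975, limma, Benjamini-Hochberg adjusted p = 0.118). *Bnip3*, which encodes a mitophagy receptor, was at 74.9, 62.8, 63.4 and 57.0 TPM in control and 82.5, 97.0, 55.8 and 72.2 TPM in mutant FNPs. For the mandible the values of *Bnip3* were 61.3, 61.7, 47.4 and 52.5 TPM and 76.6, 90.9, 78.4 and 54.9 TPM. Embryos 3 and 4 had the highest levels in the FNP, where embryo 5 had the lowest of all, but in the mandible embryo 5 lay above embryo 3. In limma, the log2 fold change was 0.29 (SE 0.103, limma, Benjamini-Hochberg adjusted p = 0.167). Without embryo 5, *Bnip3* and *Pfkfb3* passed together with *P4ha1* (limma, adjusted p = 0.0357 and 0.0481). The median member difference was 0.07 within the first litter, 3 mutants against 2 controls, and 0.13 within the second, 1 mutant against 2 controls.

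Of the other pathway lists, 1 gene passed in the genotype comparison, *Cs*, which fell by 0.14 in mutants (SE 0.0287, limma, Benjamini-Hochberg adjusted p = 0.0268). That fit took both libraries of an embryo as separate samples. Neither the call of *Cs* nor that of *C1qa* below was followed under other settings. No gene passed among 16 HIF subunits and regulators, 41 other HIF targets or 21 other glycolysis genes in limma (4, 11 and 3 at an unadjusted p under 0.05). Among cell markers 1 of 11 macrophage genes passed, *C1qa*, which rose by 0.75, and the summed macrophage level was 25.5 to 30.7 TPM in control and 33.1 to 36.7 TPM in mutant mandibles. The macrophage sums of the FNPs were 29.6 to 44.1 TPM and 39.2 to 45.9 TPM. Of 14 erythroid genes 0 passed in limma (2 at an unadjusted p under 0.05) and 13 were above 0. In the FNP alone 14 were above 0 (median log2 fold change 0.49) and in the mandible alone 8 (median 0.03). Erythroid sums were 13258.7 to 17662.2 TPM in control and 15331.7 to 26716.6 TPM in mutant FNPs, and 13519.5 to 18779.2 TPM and 11789.9 to 24525.6 TPM in mandibles. Of 14 endothelial genes 0 passed in limma (6 at an unadjusted p under 0.05) and 13 were above 0. Endothelial sums were 246 to 291 TPM in control and 277 to 305 TPM in mutant FNPs, and 259 to 287 TPM and 275 to 308 TPM in mandibles. Of 8 skeletal muscle genes 0 passed in limma (3 at an unadjusted p under 0.05), 7 were above 0 and the median log2 fold change was 0.50, with sums of 5.96 to 11.8 TPM in control and 9.66 to 14.2 TPM in mutant FNPs, and 36.3 to 112 TPM and 46.8 to 121 TPM in mandibles. No neuron, surface ectoderm or mesenchyme marker passed in limma (1, 2 and 2 at an unadjusted p under 0.05). The part of these cells in the genotype estimates was not tested.

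Finally, the FNP and mandible of an embryo were set against each other, as they are separate libraries from 1 animal. Over 8 embryos the members had a median Pearson r of 0.72 on the log2 values, against 0.35 for all genes tested. Since the litters stood apart for many members, r was also taken within litters by subtracting their means, which gave a median of 0.52 against 0.23. With litter and genotype effects removed the medians were 0.41 and 0.19. These medians are descriptions, as the genes are not independent of each other. By exact permutation over all pairings of the embryos, 0 of 34 members passed after adjustment over all genes, against 0.157% of all genes. For the 8 members that were lower in the second litter without overlap, and for *Aldoc*, no r over all embryos is given, and each litter holds fewer than 6 embryos. Among the others, the genes described here were picked by no rule set beforehand. *Slc2a1* and *Egln3* had the smallest p (r = 0.84 and 0.82, exact permutation p = 0.00816 and 0.0122), with r of 0.67 and 0.64 once litter means were removed. *Pfkfb3*, the gene of a kinase that activates phosphofructokinase, gave r = 0.80 (Spearman rho 0.79, exact permutation p = 0.0125 and 0.0279, Benjamini-Hochberg adjusted p for r 0.160). Its r was 0.80 with litter means removed and 0.42 without the 2 embryos farthest from the median FNP level, so the relation rested in part on those embryos. *Ddit4*, which encodes an inhibitor of mTORC1 signalling, gave r = 0.77 (Spearman rho 0.69, exact permutation p = 0.0153 and 0.0694, adjusted p for r 0.174). For it r was 0.86 with litter means removed and 0.79 without the 2 farthest embryos. *Egln1*, the main oxygen sensor among the prolyl hydroxylases, gave r = 0.82 (Spearman rho 0.48, exact permutation p = 0.0233 and 0.243, adjusted p for r 0.207) and -0.07 without the 2 farthest embryos, so its relation rested on them. *Higd1a*, a mitochondrial gene, and *Ndrg1* were the members below 0 (r = -0.41 and -0.17, exact permutation p = 0.304 and 0.730, adjusted p = 0.612 and 0.888).

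**Figure D4:**
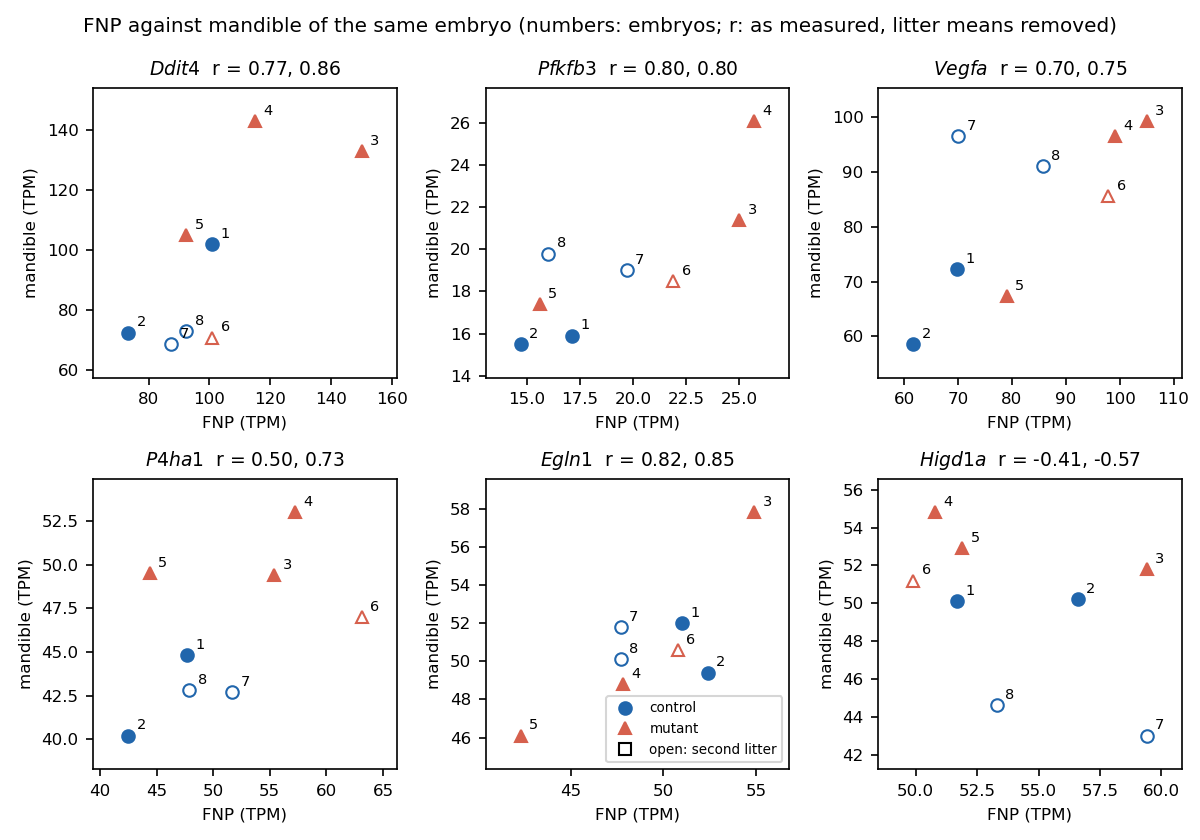
FNP level (horizontal axis, TPM) against mandible level (vertical axis, TPM) of the same embryo for 6 genes, with embryo numbers. Circles are controls, triangles mutants and open symbols the second litter, and r over 8 embryos is given as measured and then with litter means removed, both on log2 values. Embryos 3 and 4 lie at the upper right for *Ddit4*, *Pfkfb3* and *Vegfa*, and *Higd1a* runs the other way.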

How the data were processed

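RNA-seq of the FNP and mandible of 8 embryos at E11.5 gave 16 libraries. Per the labels and the methods of the study, the authors quantified reads with Salmon 1.5.0 on mm10 and normalised them in sleuth 0.30.0-4. The deposited gene values are a signal, namely estimated counts divided by a size factor, and are neither whole reads nor suited to a count model. The deposited TPM signal carries a library factor as well, so totals ranged from 0.921 to 1.069 m. The authors' comparison tables hold effect sizes, fold changes and p-values and were not used. Litter was read from the deposited design table.

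Values of at least 10 in at least 4 libraries were tested as log2(value + 0.5) with limma 3.58.1 (trended variance, R 4.3.3), with tissue, litter and genotype as terms and Benjamini-Hochberg adjustment over all genes. Levels are deposited TPM. FNP and mandible of 1 animal pair by design: their deviations from the group means correlated at 0.10 to 0.23, and each embryo matched itself best in 8 of 8. Fits were tested on simulated data with independent libraries, which cannot show how the pairing of the tissues affects them. The members and lists were chosen with earlier results of these data known. Values per library are given for 14 members, taken in turn from those with the smallest adjusted p of the litter, tissue and genotype comparisons, and from other lists up to 4 genes with the smallest adjusted p are named, apart from genes said to be chosen after their values were seen. The interaction of litter and tissue was added after the data were seen. Alternatives were other pseudocounts, filters and scalings, deposited TPM, embryos left out, the embryo as a block, and subsets of libraries.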

Additional observations from a re-analysis of the deposited data

Results flagged for a closer look

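In 2 of 144 groups of 4 libraries, 1 library stood apart by Dixon's criterion (critical value 0.829), which chance alone meets in about 1 in 20 groups. *Pgam1* in mutant mandibles was at 436 TPM in embryo 6, the mutant of the second litter, and at 538 to 555 TPM in the other mutants. *Ddit4* in control mandibles was at 102 TPM in embryo 1, and at 68.7 to 73.0 TPM in the other controls.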

How the results depend on the processing

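With the 2 libraries of an embryo joined in a replicate block (duplicateCorrelation, within-embryo correlation 0.118), 0 members were called by genotype, 9 by tissue and 19 by litter. With the embryo as a fixed term, 12 were called by tissue. The block changed no other count of members.

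Of the members, 0 were called for genotype in both tissues, 1 with libraries scaled to equal totals, and 0 to 3 when an embryo was left out. The tissue comparison called 9, 5 without a litter term, 5 among control embryos, 1 among mutant embryos (fewer samples in both), and 6 to 10 when an embryo was left out. The litter comparison called 19, 9 in FNPs alone, 12 in mandibles alone (fewer samples in both), and 16 to 20 when an embryo was left out. Counts for genotype in 1 tissue, for both interactions and for the correlation were 0 members under each alternative run. *Bhlhe40*, *Eno1*, *Gapdh*, *Mif*, *Pfkl* and *Pgam1* kept their litter call in all 20 alternatives. Over all genes, genotype called 195 genes, but 41 to 367 when an embryo was left out, 124 after quantile normalization, 28 without a litter term, 113 with the block, 20 on embryo means, and 24 or 36 against controls with or without Cre. In FNPs it called 15 genes, 28 on deposited TPM and 9 without embryo 1, and in mandibles 14, or 7 against controls with Cre. Tissue called 4352 genes, 2506 among controls and 2261 among mutants. Litter called 3824 of 14630 genes, 2343 without embryo 1, 2329 without embryo 8, 2379 on embryo means, 1098 of 14197 in FNPs and 612 of 14004 in mandibles. The interaction of genotype and tissue called 0 genes, or 1 without embryo 2, and that of litter and tissue 0, or 1 without embryo 1 and 63 without embryo 3. The correlation called 23 genes, 9 with litter means removed, 39 with litter and genotype removed, 0 at equal totals and 0 when any embryo was left out, where fewer pairings exist. Where no reason is given, the cause was not tested. Depth behind single values is unknown, and with 3 embryos in the second litter, 1 of them mutant, the precision of each litter and genotype estimate is limited by their number.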
